A study of Mus musculus with 8 samples.

Results

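The proteins of the large subunit of the cytosolic ribosome are encoded in the mouse by genes named Rpl and Rplp. Genes were taken by symbol, as Rpl followed by a number with an optional A, a, L, l or x, or as Rplp0, Rplp1 or Rplp2, and pseudogenes named -ps or Gm were left out. This rule found 49 of the 23761 genes listed. RNA was sequenced from bone marrow-derived macrophages (BMDMs), which are cells flushed from the femur and tibia and grown in medium conditioned by L929 cells. Control mice (LysM, n = 4) were LysM Cre/Cre. Knockout mice (K2KO, n = 4) carried the same LysM Cre/Cre driver together with KLF2 flox/flox, so that the transcription factor KLF2 was targeted in myeloid cells. The driver recombines in cells that use the lysozyme gene Lyz2, and both genotypes carry it on both alleles. Mice of both groups were 3 months old, and the sample descriptions of both groups name a vehicle. The comparison asks how the loss of KLF2 changes the level of these transcripts in macrophages.

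Values are FPKM as the authors deposited them, which are fragment numbers scaled by transcript length and by the depth of the library. Each library is named here by its genotype and the number that ends its column (LysM0 to LysM3 and K2KO0 to K2KO3), because the columns are tied to a genotype but not to a single mouse. Summed over all genes, FPKM ranged from 497253 to 551608 in LysM BMDMs and from 448235 to 501965 in K2KO-labelled BMDMs, and the number of reads behind them is unknown. In bulk RNA of this kind, fewer cells of a type and less RNA per cell cannot be told apart. Klf2 itself averaged 58.7 ± 12.7 FPKM (SD, n = 4) in LysM BMDMs and 51.4 ± 9.22 FPKM (SD, n = 4) in K2KO-labelled BMDMs, and its log2 fold change was -0.18 ± 0.17 (SE; limma, adjusted p = 0.46). A gene-level FPKM does not show which exons were read. Since Klf2 was not called lower, every direction below is that of the libraries labelled K2KO. The labelled cell type was checked against 8 macrophage markers. Their summed level ranged from 3927 to 4142 FPKM in LysM BMDMs and from 3683 to 3825 FPKM in K2KO-labelled BMDMs, with the lysosomal glycoprotein gene Cd68 the most abundant. Much of the difference lay in Cd14, a coreceptor for bacterial lipopolysaccharide, which averaged 1028 ± 56.7 FPKM and 829 ± 118 FPKM (SD, n = 4) and was not called (adjusted p = 0.063). The log2 fold changes of Csf1r and Adgre1, which mark the lineage, were 0.0019 and 0.020. As a share of all FPKM the markers made up 0.761% and 0.796% on average, so the direction of their sum turned with the scaling.

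Ribosomal proteins of the large subunit fold around its RNA, and most are present once per ribosome. Together they shape the catalytic centre that joins amino acids, the tunnel through which the new chain leaves, the stalk that recruits elongation factors and the surface that meets the small subunit. Their messenger RNAs are among the most abundant of a growing cell, and many begin with a run of pyrimidines (the terminal oligopyrimidine, or TOP, motif) through which mTORC1 controls their translation. The genes have been copied many times into the mouse genome as processed pseudogenes, which keep the coding sequence and have no introns.

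The last point bears on the values of the many genes with such copies, so coding stretches of 4 genes, picked once their values were seen, are shown beside the copy that held the most signal, with 2 copies for Rpl29. Each stretch is 60 bases of the mm10 genome from 1 exon, read on the strand of the gene from the GENCODE M21 transcript, and is the stretch of that length within a single coding exon that differs most. Capitals mark positions at which the gene and a copy differ. Within Rpl29 the stretch is chr9:106431364-106431423 (+ strand, exon 4 of 4). It is chr9:7752122-7752181 (+ strand) in Gm10709 and chr13:55086174-55086233 (+ strand) in Gm6344. For Rpl24 it is chr16:55971311-55971370 (+ strand, exon 6 of 6), against chr11:58508812-58508871 (- strand) in Gm12254. For Rpl37a it is chr1:72712148-72712207 (+ strand, exon 3 of 4), against chr13:75645034-75645093 (+ strand) in Gm4149. For Rpl3 it is chr15:80082523-80082582 (- strand, exon 2 of 10), against chrX:13202575-13202634 (+ strand) in Rpl3-ps1.
Rpl29: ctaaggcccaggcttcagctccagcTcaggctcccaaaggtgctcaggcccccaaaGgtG
Gm10709: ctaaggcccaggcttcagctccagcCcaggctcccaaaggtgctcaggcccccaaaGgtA
Gm6344: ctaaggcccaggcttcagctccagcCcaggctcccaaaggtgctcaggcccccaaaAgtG
Rpl24: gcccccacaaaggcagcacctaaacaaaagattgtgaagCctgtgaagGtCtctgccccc
Gm12254: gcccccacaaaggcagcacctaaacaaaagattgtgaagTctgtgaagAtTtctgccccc
Rpl37a: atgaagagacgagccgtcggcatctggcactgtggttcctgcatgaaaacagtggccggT
Gm4149: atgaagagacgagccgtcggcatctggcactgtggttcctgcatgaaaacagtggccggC
Rpl3: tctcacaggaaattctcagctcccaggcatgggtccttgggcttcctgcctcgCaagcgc
Rpl3-ps1: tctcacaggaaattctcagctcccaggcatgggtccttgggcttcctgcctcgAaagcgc

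Over the whole coding sequence, Gm10709 differed from Rpl29 at 4 of 480 bases and Gm6344 at 3 of 480. Gm4149 differed from Rpl37a at 1 of 276 coding bases and Rpl3-ps1 from Rpl3 at 2 of 1209. Rpl10a and its copy Rpl10a-ps1 did not differ at any of 645 aligned coding bases. A read that covers no such position, or no junction between exons, cannot be assigned to the gene or to the copy by sequence.

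Rpl29, which is also known as a heparin- and heparan sulfate-binding protein, stood apart from every other large-subunit gene. The gene lies at chr9:106429454-106431568 on the + strand. It was listed at 0.245, 0.253, 0.102 and 0 FPKM in LysM0 to LysM3. In K2KO0 to K2KO3 it was listed at 336.9, 348.9, 408.5 and 435.4 FPKM. The groups were therefore far apart. Rpl29 had the lowest LysM mean of the 49 genes (rank 49) and took rank 10 by its mean in K2KO-labelled BMDMs, where it made up 2.77% of the summed large-subunit FPKM. The log2 fold change was 10.74 ± 0.355 (SE) on the log2(FPKM + 0.1) scale. It is given as a description with no p, since Rpl29 reached the minimum level for the test only through the libraries in which it was high. Its size depends on the pseudocount, since the LysM values are near 0: it was 8.38 with a pseudocount of 1 and larger than the reported value with 0.01.

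Of its copies, Gm10709 and Gm6344 shared this pattern. In K2KO-labelled BMDMs, Gm10709 was listed at 28.8, 34.4, 29.8 and 23.2 FPKM, and it was listed at 0 in every LysM library. Gm6344 was listed at 0 in every LysM library too, and averaged 4.80 ± 0.396 FPKM (SD, n = 4) in K2KO-labelled BMDMs. Summed over 22 listed copies on the same strand as the transcript, the level was 1.04 ± 1.17 FPKM in LysM BMDMs and 35.0 ± 5.29 FPKM in K2KO-labelled BMDMs (SD, n = 4 each). The other 20 copies summed to 1.04 ± 1.17 FPKM in LysM BMDMs and 1.14 ± 0.546 FPKM in K2KO-labelled BMDMs, so their groups overlapped, and 6 of them were listed at 0 in every library. Of the 24 listed genes that resemble Rpl29, Uimc1 (on the opposite strand) and Gm3550 (under 50% of which aligned) are outside that sum. Uimc1 averaged 15.5 ± 1.92 FPKM in LysM BMDMs and 13.5 ± 1.01 FPKM in K2KO-labelled BMDMs (SD, n = 4), and Gm3550 was listed at no more than 0.0757 FPKM in any library. A further 9 annotated copies were not analysed here. A value near 0 in these data need not mean that a transcript was absent from the cells. Gapdh, a glycolytic enzyme gene used by all cells, was listed near 0 in both genotypes, unlike Rpl29. It averaged 0.179 ± 0.13 FPKM in LysM BMDMs and 0.356 ± 0.121 FPKM in K2KO-labelled BMDMs (SD, n = 4). Whether Rpl29 transcripts were absent from the LysM cells was not tested. Around Rpl29, within 1 Mb on either side, 21 other genes were tested, of which 10 were called higher and 3 lower, against 9.84% and 8.61% of all tested genes.

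**Figure D1:**
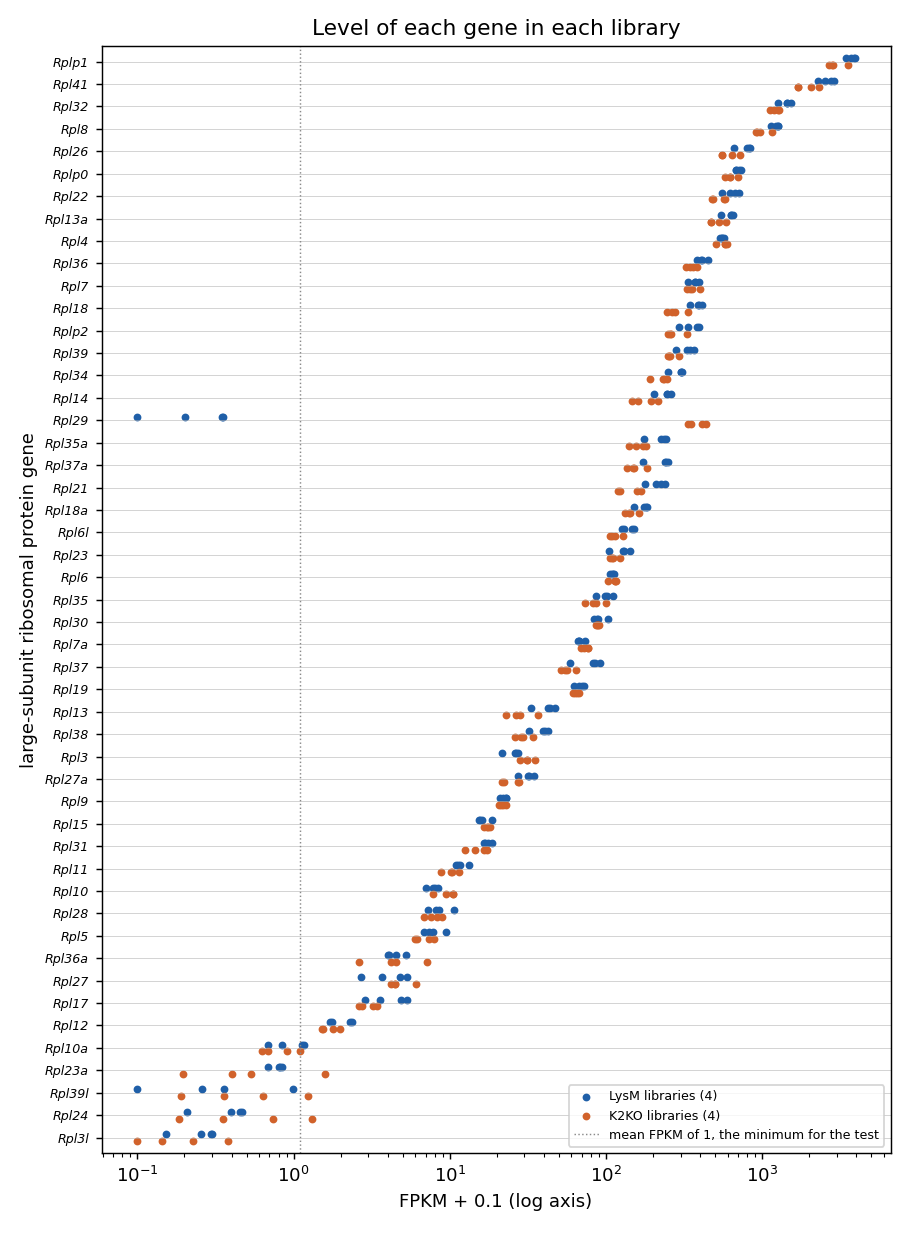
Level of each of the 49 genes in each library, as FPKM + 0.1 on a log axis, with 4 LysM points and 4 K2KO points a gene. Genes are ordered by their mean, and the dotted line marks the mean FPKM of 1 needed for the test. Rpl29 alone shows groups that lie orders of magnitude apart, while for the other genes the 2 groups lie side by side or overlap.

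Levels differed widely between large-subunit genes. The 5 highest by mean FPKM over all libraries were Rplp1 (3336), Rpl41 (2271), Rpl32 (1312), Rpl8 (1104) and Rpl26 (696), and together they made up 59.1% of the summed large-subunit FPKM in LysM BMDMs. At the low end were Rpl24 (0.414), Rpl10a (0.793) and Rpl23a (0.634), whose proteins are part of the large subunit. Their low values went with high values of their copies. Rpl10a averaged 0.855 FPKM in LysM BMDMs, whereas Rpl10a-ps1 was listed at 340.0, 333.4, 317.5 and 309.1 FPKM in the same libraries. Rpl24 averaged 0.28 FPKM, and its 4 listed copies summed to 621.3 FPKM.

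Of the 49 genes, 43 had at least 1 listed copy, defined as a transcript of another gene at 95% identity or more over at least 200 bases on the same strand, with the alignment covering at least 50% of the copy. In all there were 298 such copies, each given to the gene it matched best. Genes of the rule were not counted as copies of one another. Besides, 17 of the 49 genes overlapped another listed gene on the same strand, so that their values are uncertain for that reason as well. In LysM BMDMs 27 of the 49 genes held under 50% of the FPKM summed over the gene and its copies, and 16 held under 10%. Rpl37a, a zinc-binding protein, held 225.0 FPKM against 3435 FPKM in Gm4149, and Rpl23 held 126.1 FPKM against 2064 FPKM in Gm9794. By contrast 13 genes held 90% or more, among them Rpl32 (99.3%), Rpl22 (99.8%), Rpl35a (97.8%) and Rpl4 (93.6%), as did Rpl8, Rpl39 and Rplp2, for which no listed copy met the definition. When each gene was summed with its copies, the spread of levels between 45 genes (Rpl29, the tissue-restricted Rpl3l and Rpl39l and the pseudogene-like Rpl6l left out) narrowed from an SD of 3.23 to 1.91 in log2 units. Rpl27 remained low on both scales, at 4.01 FPKM alone and 5.19 FPKM with its copies.

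**Figure D2:**
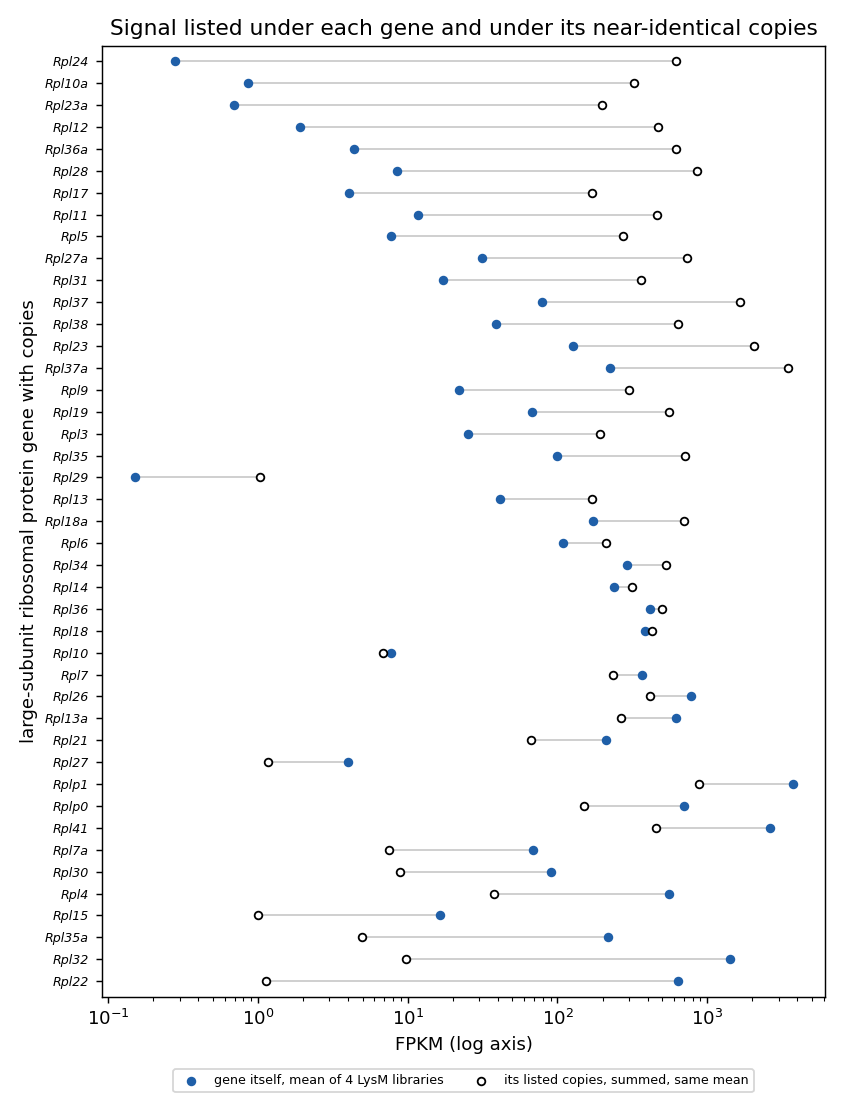
FPKM of each gene (filled) and of its listed copies summed (open), both as means of the 4 LysM libraries on a log axis, for the 43 genes with copies. Genes are ordered by the share they hold themselves, from 0.0451% for Rpl24 at the top to 99.8% for Rpl22 at the bottom.

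With the genotypes compared gene by gene, 15 large-subunit genes were called lower in K2KO-labelled BMDMs and 2 higher. A gene was tested where its mean FPKM over the 8 libraries was at least 1, and was called where the adjusted p was under 0.05 (limma, Benjamini-Hochberg over all 10920 tested genes) with an absolute log2 fold change over 0.26. The mean was under 1 for 5 genes (Rpl10a, Rpl23a, Rpl24, Rpl39l and Rpl3l), which leaves 44. Of these, 15 were called lower (34.1%), against 8.61% of all tested genes. A further 2, Rpl29 and Rpl3, were called higher (4.55%), against 9.84% of all tested genes, of which Rpl29 had to differ to be tested at all. The log2 fold change was negative for 36 of the 44, or 81.8%, against 48.2% of all tested genes. Its median was -0.233, or -0.238 without Rpl29, against 0.011 over all tested genes. The mean without Rpl29 was -0.217, whereas with Rpl29 it was 0.032, so the single gene turned the sign of the mean.

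The falls were small. Called genes were lower by 17.3% to 33.6%, with adjusted p between 0.0208 and 0.0491. The groups mostly overlapped: in only 3 of the 44 (Rpl18, Rpl21 and Rpl34, or 6.82%) did every K2KO library lie below every LysM library, against 10.2% of all tested genes. In 2 (Rpl29 and Rpl3) every K2KO library lay above, against 12.9% of all tested genes, but Rpl29 had to differ to be tested at all. The calls also depended on single libraries. Without LysM0 there were 22 genes called lower (against 10.6% of all tested genes) and without K2KO3 there were 21 (against 12.4%), but without any 1 of LysM1, LysM2, LysM3, K2KO0, K2KO1 or K2KO2 there were 0. In those 6 fits the median kept its sign, and between 18 and 25 genes had a negative log2 fold change with an unadjusted p under 0.05 by limma, compared with 23 in the fit with all libraries. The share of all tested genes that did so was 18.1% with all libraries and between 13.9% and 16.3% in those 6 fits. Calls over all tested genes dropped too in those 6 fits, from 2014 to between 337 and 1030.

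**Figure D3:**
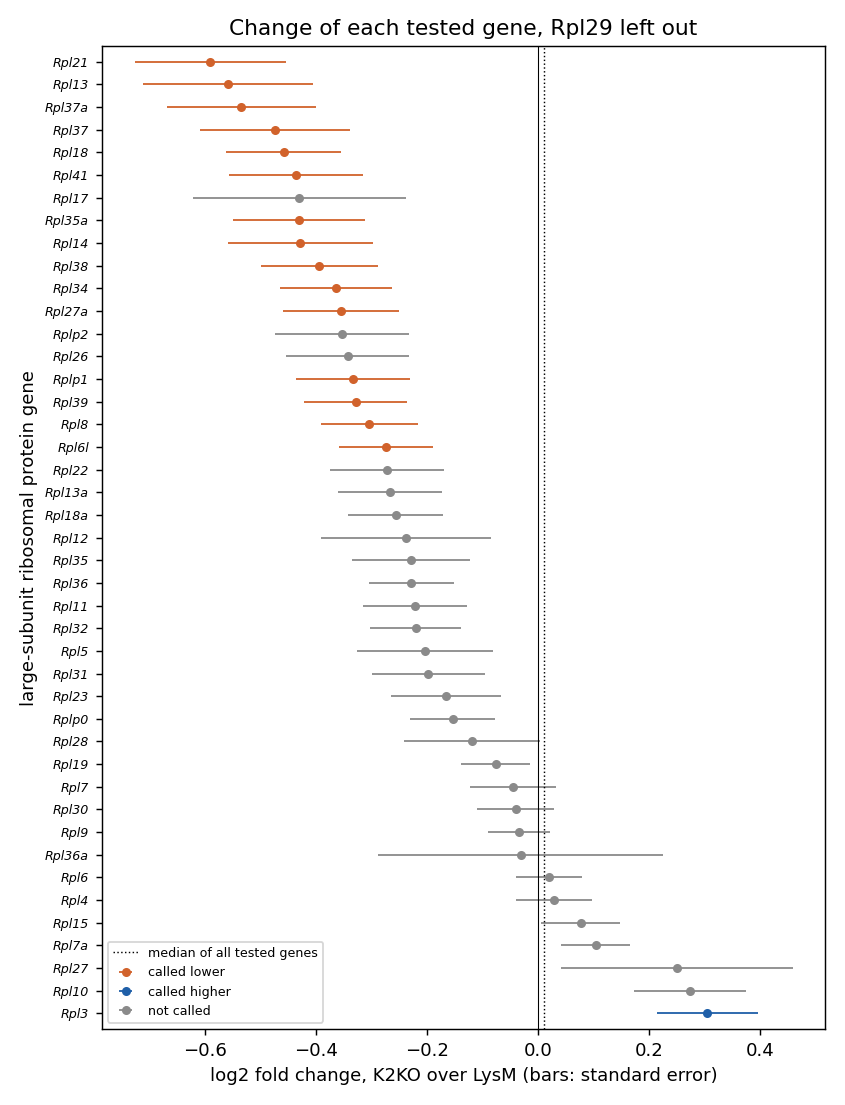
Log2 fold change of each tested gene other than Rpl29 (43 genes), K2KO over LysM, with its standard error. The 15 genes called lower lie between -0.59 and -0.27, the 1 called higher (Rpl3) at 0.31, and the dotted line at 0.011 marks the median of all tested genes.

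The 5 called genes with the largest falls were Rpl21, Rpl13, Rpl37a, Rpl37 and Rpl18, structural proteins spread over the subunit. Rpl21 (chr5:146832890-146837032) was listed at 177.3, 208.6, 238.2 and 225.6 FPKM in LysM0 to LysM3. In K2KO0 to K2KO3 it was listed at 118.9, 121.8, 158.5 and 168.4 FPKM. The highest K2KO library, K2KO3, lay just below the lowest LysM library, LysM0. The log2 fold change was -0.59 ± 0.137 (SE; limma, adjusted p = 0.0218). Summed with its 42 listed copies it was -0.60 (adjusted p = 0.0208). For Rpl13 (chr8:123102350-123105244) the LysM libraries read 32.7, 43.8, 47.3 and 42.6 FPKM. The K2KO libraries read 28.0, 22.7, 26.5 and 36.3 FPKM. Here LysM0 lay below K2KO3, so the groups overlapped, and the log2 fold change was -0.56 ± 0.153 (adjusted p = 0.034). With each library corrected by local regression on GC content and transcript length (the GC and length correction), Rpl13 was at -0.33 (adjusted p = 0.0944) and not called.

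Rpl37a was listed at 171.1, 238.0, 242.8 and 248.1 FPKM in LysM BMDMs and at 150.3, 136.6, 148.7 and 182.6 FPKM in K2KO-labelled BMDMs. LysM0 again fell within the K2KO range, and the log2 fold change was -0.53 ± 0.134 (limma, adjusted p = 0.0269). Its copy Gm4149, which held most of the signal, had a log2 fold change of -0.47 (adjusted p = 0.0317). Rpl37, another small zinc-binding protein, averaged 79.2 ± 14.2 FPKM in LysM BMDMs and 56.5 ± 5.50 FPKM in K2KO-labelled BMDMs (SD, n = 4), with a log2 fold change of -0.47. Rpl18 was listed at 343.6, 391.0, 386.7 and 409.0 FPKM in LysM BMDMs. In K2KO-labelled BMDMs it was listed at 243.7, 262.6, 277.9 and 335.5 FPKM. Its groups did not overlap, and its log2 fold change of -0.46 ± 0.104 had the lowest adjusted p of the genes called lower (0.0208). Rpl34 averaged 290.3 ± 28.1 FPKM against 225.7 ± 23.9 FPKM (SD, n = 4) and likewise did not overlap, with a log2 fold change of -0.36 (adjusted p = 0.0354). Rpl34 lost its call after the GC and length correction (-0.17, adjusted p = 0.163) and after quantile normalization (-0.18, adjusted p = 0.154). Rpl37 (-0.36, adjusted p = 0.0662) and Rpl37a (-0.35, adjusted p = 0.0528) lost theirs after quantile normalization. In all 15 genes called lower, LysM0 was the lowest LysM library and K2KO3 the highest K2KO library.

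Rpl3, whose protein reaches towards the catalytic centre, was the only large-subunit gene other than Rpl29 to be called higher. It was listed at 27.4, 26.4, 25.9 and 21.6 FPKM in LysM BMDMs and at 30.9, 34.8, 31.2 and 28.2 FPKM in K2KO-labelled BMDMs, so that the groups lay next to each other without overlap. The log2 fold change was 0.31 ± 0.0906 (SE, limma, adjusted p = 0.0435). It was called in 2 of the 8 fits that left out a library. After the GC and length correction Rpl3 was not called (adjusted p = 0.061), though its log2 fold change was 0.39 and so no smaller. Rpl3 held only 11.7% of the FPKM summed with its copies, and Rpl3-ps1 averaged 190.9 FPKM. The sum was therefore mostly its copies, and its log2 fold change was -0.06 ± 0.0797 (SE, limma, adjusted p = 0.577). That value lay within its SE of 0 and gives no direction for Rpl3 itself.

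Among genes of the stalk, which recruits elongation factors, 1 of 4 was called. Counts in this and the other role groups stand against 8.61% of all tested genes called lower and 9.84% called higher, and with so few genes a single call is no result about a group. Rplp1 was listed at 3415, 3850, 3679 and 3902 FPKM in LysM BMDMs and at 2664, 2783, 2857 and 3541 FPKM in K2KO-labelled BMDMs. K2KO3 lay above LysM0, and the log2 fold change was -0.33 ± 0.103 (limma, adjusted p = 0.048). With a pseudocount of 1 (adjusted p = 0.051) or 0.01 (0.0662) Rplp1 lost its call, while its log2 fold change stayed at -0.33. The call was also lost over protein-coding genes only (adjusted p = 0.055). The log2 fold change was -0.061 (adjusted p = 0.653) after the GC and length correction and -0.045 (0.544) after quantile normalization. Its partner Rplp2 had a log2 fold change of -0.35 (adjusted p = 0.0655), and Rplp0, which anchors both, of -0.15 (adjusted p = 0.167). Rpl12, at the base of the stalk, averaged 1.93 ± 0.333 FPKM in LysM BMDMs and 1.61 ± 0.22 FPKM in K2KO-labelled BMDMs (SD, n = 4), and its copy Gm10275 averaged 467.6 FPKM in the former. Rpl5 and Rpl11, which carry the smallest RNA of the large subunit and bind Mdm2 when free, were not called. Their log2 fold changes were -0.20 (adjusted p = 0.248) and -0.22 (adjusted p = 0.115). Both held under 3% of the sum with their copies, and for that sum the log2 fold changes were -0.05 and -0.02.

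Around the catalytic centre and the transfer RNA sites, 1 of the 5 genes tested was called lower and 1, Rpl3, higher. Rpl8, which lies close to the centre and had no listed copy, was listed at 1135, 1226, 1252 and 1261 FPKM in LysM BMDMs. In K2KO-labelled BMDMs it was listed at 930.7, 912.7, 969.4 and 1148 FPKM. Only K2KO3 reached the LysM range, and the log2 fold change was -0.30 ± 0.0873 (limma, adjusted p = 0.039). The call was lost after the GC and length correction (-0.075, adjusted p = 0.359) and after quantile normalization (-0.030, adjusted p = 0.741). Rpl4, whose loop reaches into the exit tunnel, averaged 552.0 ± 12.8 FPKM against 563.9 ± 38.5 FPKM (SD, n = 4), and its log2 fold change was 0.03 ± 0.0685. Rpl10, which joins late in assembly, had a log2 fold change of 0.27 (adjusted p = 0.0816), and Rpl36a, near the site where spent transfer RNA leaves, of -0.03 ± 0.256. Rpl36a held 0.697% of the sum with its copies, and that sum was called lower (log2 fold change -0.40, adjusted p = 0.0276).

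Among the exit tunnel genes 1 of 6 tested was called. Rpl39, a small protein inside the tunnel, was listed at 280.4, 330.3, 365.1 and 344.4 FPKM in LysM BMDMs and at 254.8, 249.1, 253.8 and 291.1 FPKM in K2KO-labelled BMDMs. K2KO3 was the only K2KO library inside the LysM range, and the log2 fold change was -0.33 ± 0.0929 (limma, adjusted p = 0.0374). Quantile normalization ended the call for Rpl39 (-0.14, adjusted p = 0.179). Rpl26 had a log2 fold change of -0.34 (adjusted p = 0.0559), Rpl17 of -0.43 (0.134), Rpl35 of -0.23 (0.146), Rpl31 of -0.20 (0.183) and Rpl19 of -0.08 (0.387), with adjusted p in brackets, all negative and none called. Rpl41, a very short peptide between the subunits, was 1 of 2 bridge genes tested to be called. It was listed at 2276, 2529, 2878 and 2744 FPKM against 1698, 1701, 2050 and 2296 FPKM, so LysM0 lay just below K2KO3, and its log2 fold change was -0.44 ± 0.121 (limma, adjusted p = 0.0354). The value was -0.064 (adjusted p = 0.627) after quantile normalization and -0.20 (adjusted p = 0.16) after the GC and length correction, so that Rpl41 was no longer called.

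Genes known for use in few tissues, or for roles outside the ribosome, differed in level. Rpl3l, a form used in striated muscle, averaged 0.15 FPKM, and Rpl39l, a form used in testis, 0.328 FPKM in LysM BMDMs, both under the minimum for the test. Rpl38, studied for its part in the translation of Hox messenger RNAs, averaged 38.6 ± 4.52 FPKM against 29.3 ± 3.30 FPKM (SD, n = 4) and was called lower (log2 fold change -0.39, limma, adjusted p = 0.0325). After the GC and length correction Rpl38 was at -0.097 (adjusted p = 0.618) and not called. Rpl13a, a part of the GAIT complex that silences inflammatory transcripts, had a log2 fold change of -0.27 (adjusted p = 0.0705). Rpl22 had one of -0.27 (adjusted p = 0.0858), and its paralog Rpl22l1, named outside the rule, was called lower at -0.40 (adjusted p = 0.0314), from 47.8 ± 4.25 to 36.4 ± 4.94 FPKM (SD, n = 4). Rpl36al (-0.35) and Rpl7l1 (-0.07), also outside the rule, were not called. Rpl6l, which the symbol rule includes and GENCODE types as a processed pseudogene, was called lower (-0.27, adjusted p = 0.0491), but not after the GC and length correction (-0.14, adjusted p = 0.157).

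Sequence copies changed which genes were called more than how many. After each gene was summed with its copies, 47 could be tested and 15 were again called lower, against 8.52% of the 10848 genes in that fit. Of these, 12 were called alone too, while Rpl14, Rpl27a and Rpl38 were no longer called and Rpl31, Rpl36 and Rpl36a were. The median log2 fold change without Rpl29 was -0.264 on that scale. Among the 11 tested genes that held 90% or more of their sum, 4 were called lower (Rpl35a, Rpl39, Rpl6l and Rpl8), and the median log2 fold change was -0.272, against 8.61% called lower and a median of 0.011 over all tested genes. Rpl6l is itself typed as a processed pseudogene, and no copy was given to it. Its place among the 11 therefore does not show that its reads were its own. Among the other 32 tested genes without Rpl29, 11 were called lower, with a median of -0.233.

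Level summed over the large-subunit genes without Rpl29 was 14746, 16729, 17244 and 17105 FPKM in LysM0 to LysM3. In K2KO0 to K2KO3 it was 12246, 12524, 13577 and 15255 FPKM. K2KO3 reached above LysM0, and the other 3 K2KO libraries lay below all LysM libraries. The group means were 16460 ± 1161 and 13400 ± 1363 FPKM (SD, n = 4), a log2 ratio of -0.30, and with Rpl29 the log2 ratio was -0.26. Summed FPKM over all genes was itself 10.9% lower in K2KO-labelled BMDMs. As a share of that total, the large-subunit genes without Rpl29 made up 3.09% ± 0.093 in LysM BMDMs and 2.83% ± 0.148 in K2KO-labelled BMDMs (SD, n = 4). When every library was scaled to the same summed FPKM, 6 genes were called lower (Rpl13, Rpl18, Rpl21, Rpl35a, Rpl37a and Rpl41) and 4 higher (Rpl3, Rpl7a, Rpl10 and Rpl29), against 15 and 2 before, and over all tested genes 3.16% were called lower and 25.5% higher. That scaling moved the median log2 fold change of all genes to 0.176, and a scaling of whole libraries leaves the distance of the large-subunit genes from that median nearly as it was. On the deposited scale their median without Rpl29 differed from that of all tested genes by -0.250. This distance was smaller after quantile normalization (-0.103) and after the GC and length correction (-0.101). It was larger with the copies summed in (-0.28), without LysM0 (-0.31) and without K2KO3 (-0.33). Leaving out any other library gave between -0.236 and -0.275.

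Libraries differed within a genotype as well as between genotypes. Taken as the deviation of each library from the mean of all 8 in log2 units, the median over 43 large-subunit genes was -0.053, 0.172, 0.222 and 0.133 in LysM0 to LysM3. In K2KO0 to K2KO3 it was -0.241, -0.235, -0.087 and 0.017. The libraries of the 2 genotypes therefore overlapped, with LysM0 below K2KO3. Other transcripts moved with them: over 545 other genes with transcripts under 500 bases, the median deviation was -0.017, 0.087, 0.085 and 0.153 in LysM BMDMs and -0.202, -0.205, -0.059 and 0.023 in K2KO-labelled BMDMs. Over all tested genes it stayed between -0.023 and 0.040. The part of this shared shift of short transcripts in the lower large-subunit values was not tested beyond the correction described next.

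**Figure D4:**
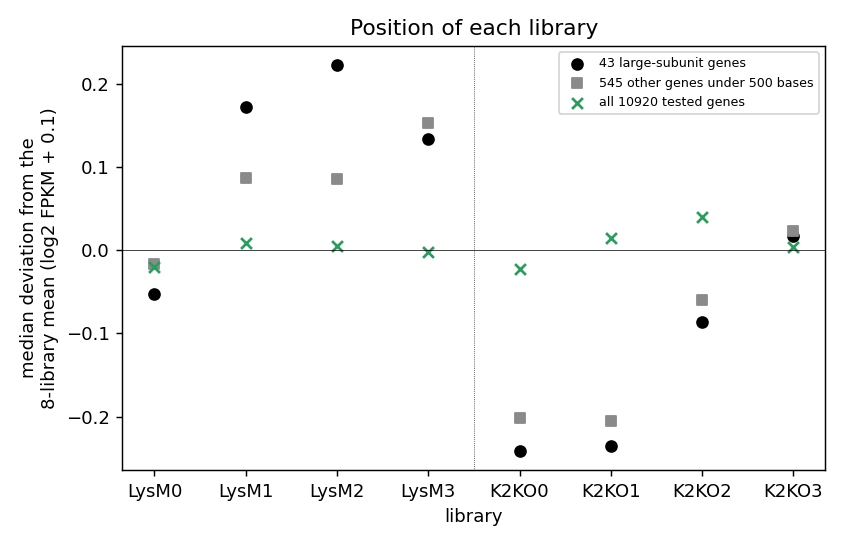
Median deviation of each library from the mean of all 8 libraries, in log2(FPKM + 0.1), for 43 large-subunit genes, 545 other genes under 500 bases and all 10920 tested genes. LysM0 and K2KO3 lie between the other libraries of the 2 genotypes for the large-subunit genes.

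Large-subunit transcripts are short, with a median annotated length of 946 bases against 2650 over all tested genes, and over all tested genes the share called lower was different from 1 length class to another. Over all tested genes with transcripts of 500 to 750 bases, 26.6% were called lower and the median log2 fold change was -0.202. Over those of 4000 bases or more, 1.67% were called lower and the median was 0.131. Under 750 bases, 7 of 12 large-subunit genes were called lower (58.3%), against 19.6% of 962 tested genes of that length. At 750 bases or more the counts were 8 of 31 (25.8%), against 7.53% of 9937. Length is that of 1 annotated transcript per gene, the longest among those the annotation ranks first. It may exceed that of the transcript in the cells, which was not tested. Rpl18, Rpl21 and Rpl27a were entered at 2989, 1856 and 1158 bases, while their leading copies are annotated at 567, 483 and 444 bases. The GC and length correction used these same lengths. Within the 43 large-subunit genes Spearman's rho between log2 fold change and length was 0.18, and over all tested genes it was 0.38, both across genes of the same libraries. After the GC and length correction, 7 large-subunit genes were called lower (Rpl18, Rpl21, Rpl27a, Rpl35a, Rpl37, Rpl37a and Rpl39), Rpl29 was called higher, and the median without Rpl29 was -0.12. Over all tested genes 4.44% were called lower after that correction.

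**Figure D5:**
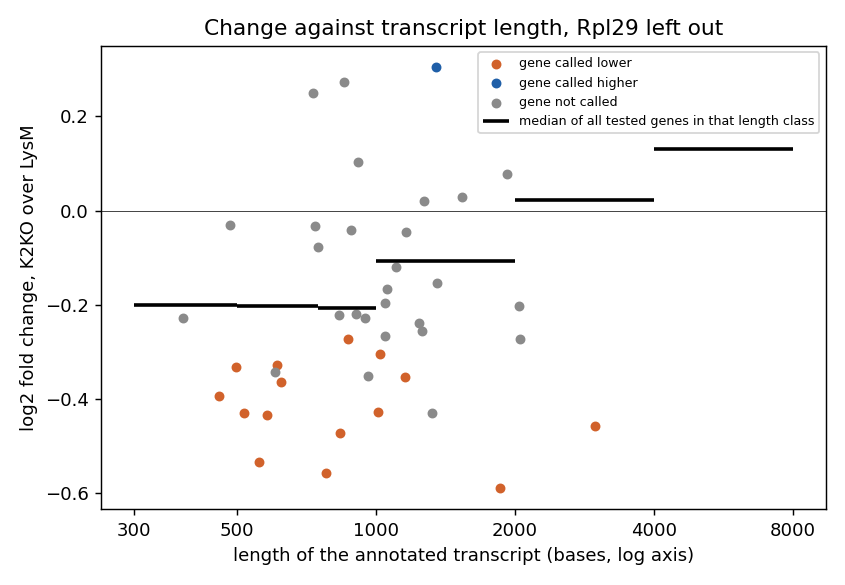
Log2 fold change of each tested large-subunit gene other than Rpl29 against the length of its annotated transcript (log axis), with the median of all tested genes in each length class as black bars. The bars run from about -0.20 for transcripts under 1000 bases to 0.131 at 4000 bases or more, and most large-subunit genes under 1000 bases lie below their bar.

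Start sites were read from RefSeq (GRCm38.p6), which held 36 of the 49 genes. A TOP-like stretch was counted where at least 5 bases in a row, read from a C within 5 bases of an annotated start, were C or T on the strand of the gene, and the stretch may continue a longer run of C and T that began before that C. By this measure 16 of the 36 genes (44.4%) had such a stretch, compared with 23.5% of the 13270 listed genes with a start window. The letters CCGGAAG, the core bound by ETS factors, stood on either strand of the window from 250 bases before to 50 after the start in 15 of the 36 (41.7%), compared with 16.4%. Windows of 30 bases are shown for Rplp0, Rpl5, Rpl19 and Rpl3l, each the first of a role group, and for Rpl18 and Rpl34, which are among the genes whose libraries did not overlap, with 15 bases on each side of the start and any such stretch in capitals. For Rpl34 the C and T run on before the capitals, to the edge of the window. They are chr5:115559452-115559481 (+) for Rplp0, chr5:107900513-107900542 (+) for Rpl5, chr11:98026695-98026724 (+) for Rpl19, chr17:24727811-24727840 (+) for Rpl3l, chr7:45718056-45718085 (+) for Rpl18 and chr3:130730323-130730352 (-) for Rpl34.
Rplp0: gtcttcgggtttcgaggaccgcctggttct
Rpl5: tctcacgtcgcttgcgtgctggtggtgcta
Rpl19: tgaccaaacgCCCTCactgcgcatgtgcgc
Rpl3l: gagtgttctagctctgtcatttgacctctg
Rpl18: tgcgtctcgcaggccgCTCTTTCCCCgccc
Rpl34: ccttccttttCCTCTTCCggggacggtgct

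Genes that build, regulate or share features with the large subunit were given beside it from lists of pathway genes, whose counts stand against 8.61% of all tested genes called lower and 9.84% called higher. Differences between lists were not tested. Small-subunit ribosomal protein genes gave values close to those of the large subunit, with 11 of 32 tested called lower, 0 higher by limma and a median log2 fold change of -0.235. Of the mitochondrial large-subunit genes 9 of 47 were called lower and 1 higher, with a median of -0.145. Of 46 assembly factors of the large subunit 1 was called lower (Nop16, -0.29) and 1 higher (Mak16, 0.26), and the median was -0.022. Of 10 genes of ribosomal RNA modification, 3 were lower (Gar1, Nop10 and Nhp2) and 2 higher (Nop56 and Nop58). The enzymes of the complexes these belong to were not called, with a log2 fold change of 0.31 (adjusted p = 0.0976) for the pseudouridine synthase Dkc1 and -0.02 (0.859) for the methyltransferase Fbl. Gar1 had a log2 fold change of -0.44 (limma, adjusted p = 0.035) and Nop58 of 0.40 (adjusted p = 0.0217).

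The list of RNA polymerase I and its factors had 4 of 19 called lower (21.1%, against 8.61% of all tested genes) and 0 higher. These were Polr1d, Polr2e, Polr2f and Znrd1, with Znrd1 the largest at -0.51 (limma, adjusted p = 0.0225). Polr2e and Polr2f are named for RNA polymerase II, so the count is not one of polymerase I alone. Genes of mTORC1 and of TOP control had 0 of 19 lower and 2 higher, which is near the 9.84% of all tested genes called higher. The 2 were the cap-binding factor Eif4e at 0.51 (limma, adjusted p = 0.0146) and the mTORC1 activator Rheb at 0.39 (adjusted p = 0.029). Among 16 other transcripts with a TOP motif, the elongation factor genes Eef1b2 (-0.35) and Eef1d (-0.30) were lower and Tpt1 (0.42) was higher. Of 12 genes of ribosomal stress and p53, 2 were lower (Phlda3 at -0.56 and Bbc3 at -0.40). Of 9 genes of ribosome quality control, Ascc3 alone was called, and was higher (0.46).

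Summed markers of other cells were low, or overlapped between the genotypes. Fibroblast markers summed to at most 3.25 FPKM in any library and T cell markers to at most 0.678 FPKM. The highest sums were 5.29 FPKM for B cell, 1.62 FPKM for dendritic cell, 1.57 FPKM for erythroid and 1.13 FPKM for mast cell markers. Markers of dividing cells summed to between 103.5 and 138.1 FPKM in LysM BMDMs and between 106.4 and 150.4 FPKM in K2KO-labelled BMDMs, and 0 of 5 tested were called by limma. Pcna was the most abundant, with a log2 fold change of 0.21, while Birc5 (-0.37), Mcm2 (-0.21) and Cdk1 (-0.20) had the opposite sign. Neutrophil markers summed to between 185.8 and 314.9 FPKM in LysM BMDMs and between 175.1 and 306.3 FPKM in K2KO-labelled BMDMs, with S100a9 the most abundant, and 1 of 7 tested (Camp, -1.15, limma, adjusted p = 0.0178) was called lower. Markers of megakaryocytes summed to between 144.6 and 354.5 FPKM and between 168.5 and 367.1 FPKM, with Pf4 the most abundant, and Ppbp was called higher (1.07, adjusted p = 0.0291). Among the macrophage markers Lyz2, which carries the driver, was called lower (-0.49, from 18.6 ± 2.88 to 13.2 ± 1.73 FPKM, SD, n = 4) and Mertk higher (0.36). The part of any of these markers in the large-subunit values was not tested.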

How the data were processed

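RNA-sequencing libraries came from BMDMs of 4 LysM and 4 K2KO mice. The authors deposited 1 table of FPKM, with no counts, so depth and counting error are unknown. The study's methods name stranded total RNA libraries, TopHat2, Cufflinks and mm10, while the submitters' processing notes name STAR, Cufflinks and Cuffdiff; versions are not given in the sources used here. The labels and the methods also name different RNA kits. Sample codes of the genotypes run in separate blocks, and any batch they mark cannot be told apart from genotype.

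Columns were mapped to genotype by name. log2(FPKM + 0.1) was fitted, for 10920 genes whose mean FPKM reached 1, with limma 3.58.1 (R 4.3.3, intensity trend), and p-values were adjusted by Benjamini-Hochberg over all of them. The thresholds (0.05 and 0.26) are those of the study's methods. The fit was tested on simulated data. Gene positions, types, lengths and GC content came from GENCODE M21, copies from blastn 2.17.0. Summing FPKM over a gene and its copies ignores their different lengths.

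The large-subunit genes and all lists were chosen with earlier results of these data known, so no test is given over a list. Genes named in the text were Rpl29, the 5 called with the largest falls and up to 5 with the largest rises, the 5 highest, those whose groups did not overlap, the role groups, and called genes of the pathway lists. Other members are named only to say what a count holds. The study's methods give 4 mice a group, while the columns do not name the mouse. Pairs of genes and copies whose sequences are printed were picked after their values were seen. The alternatives tried were other pseudocounts, filters, scalings, fits and thresholds, a replicate block, a correction for GC content and length (loess span 0.3), protein-coding genes only, copies summed in, and each library left out.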

Additional observations from a re-analysis of the deposited data

Results flagged for a closer look

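Each group of 4 libraries was examined for a library far from the other 3, for 33 named large-subunit genes and their summed level, which gave 68 groups. If the groups were independent, chance alone would give about 1 in 20 of them (3.4 here), and 6 were found. They come from the same libraries and are not independent, so 3.4 does not show how unusual 6 is. In the LysM libraries, LysM0 lay far below the other 3 for Rpl13a (544.7 FPKM), Rpl26 (656.5 FPKM), Rpl34 (248.4 FPKM) and Rpl37a (171.1 FPKM). In the K2KO libraries, K2KO3 lay far above the other 3 for Rpl39 (291.1 FPKM) and Rplp2 (331.5 FPKM).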

How the results depend on the processing

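The median log2 fold change of the large-subunit genes stayed negative under every alternative run, with and without Rpl29. The number called lower was 15 in the fit reported, against 8.61% of all tested genes, a share given in brackets for the next settings. It was 14 with a pseudocount of 1 (8.04%) or 0.01 (8.7%), scaling to the upper quartile (6.85%) or protein-coding genes only (9.45%). It was 15 with the copies summed in (8.52%), 15 with no minimum fold change and 11 by limma without trend (7.26%). It was 9 when the minimum mean FPKM was 0.1 (against 5.56% of all genes tested) and 0 with no filter, where 19 had a negative log2 fold change at an unadjusted p under 0.05 by limma, against 9.2% of all genes. It was 0 by ordinary least squares, where 22 did, against 16.5% of all tested genes. It was 6 with the same summed FPKM, 6 with the same sum over other genes, 5 after quantile normalization, 7 after the GC and length correction (against 3.16%, 3.36%, 6.40% and 4.44% of all tested genes in that order) and 0 at an absolute log2 fold change over 1. With one library left out it ranged from 0 to 22. The number called higher was 2 in the fit reported, 1 of them Rpl29, against 9.84% of all tested genes, a share given in brackets below. It was 4 with the same summed FPKM (25.5%) and 3 with the same sum over other genes (24.1%). It was 1 with the minimum at 0.1 (7.18%), no filter (1.17%), limma without trend (9.64%) and ordinary least squares (3.93%). It was also 1 with the GC and length correction (3.66%), the copies summed in (9.88%) and an absolute log2 fold change over 1. After the GC and length correction and with the copies summed in, that gene was Rpl29. With 1 library left out the number called higher ranged from 1 to 3. The median was -0.071 (-0.080 without Rpl29) with the same summed FPKM, -0.10 (-0.10) after quantile normalization and -0.084 (-0.093) with the same sum over other genes. The log2 ratio of the summed FPKM without Rpl29, -0.296 as deposited, was -0.131 and -0.144 under the 2 scalings by sums. The cause of these changes was not tested, except that the stricter threshold calls fewer genes by construction. Rpl3 summed with its copies was at -0.065 ± 0.0797 (SE), which lies within its SE of 0. For the 17 genes called in the fit reported, 101 of 254 comparisons under the alternatives with all libraries lost the call and 1 changed sign. For 16 other named genes, 10 of 240 gained one.

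The column numbers did not pair the libraries, since the correlations of same-numbered deviations were -0.07, 0.02, 0.07 and -0.06. With the number as a replicate block 17 large-subunit genes were called lower and 3 higher (Rpl3, Rpl10 and Rpl29), against 9.39% and 9.45% of all tested genes. With the replicate block and the GC and length correction together, 4 were called lower and 2 higher, against 3.33% and 3.06%.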
